A study of Mus musculus with 12 samples.

Results

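The transcripts described here are those of 39 genes that macrophages and monocytes express, read in RNA from cultured mouse splenic CD4+ T cells. The genes were chosen by name, among them the macrophage markers Lyz2, C1qa and Adgre1, and all 39 were found among the 45777 genes of the table. CD4+ T cells had been isolated from the spleens of wild type C57BL/6 mice aged 7 weeks, using magnetic beads directed at CD4, and all cultures received anti-CD3 at 0.5 µg/ml for 3 days. Control cultures received no drug, Metformin cultures received metformin, FK506 cultures received tacrolimus, and Metformin+FK506 cultures received both, with 3 samples of poly(A) RNA in each of the 4 groups. The drug doses of these cultures are not given in the sources used here, and the methods of the study list soluble anti-CD28 in the stimulation, which the labels do not. The age is that of the labels, and the methods give an older range for the study's mice. The labels do not say whether the samples came from separate mice or were pooled, so p-values measure only the spread between these samples. Bead selection can leave other splenic cells in a culture, and macrophages were neither sorted nor counted in these RNA samples.

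Macrophages are resident phagocytes, and monocytes are their circulating relatives. They take up microbes and dying cells through scavenger, lectin, Fc and TAM family receptors, digest them in lysosomes, and in the spleen they also clear old red cells. The factor PU.1, encoded by Spi1, and the growth factor receptor encoded by Csf1r are needed for much of this lineage. Metformin is a glucose-lowering drug that acts on mitochondrial respiration and AMPK, and FK506 blocks the phosphatase calcineurin, through which the T cell receptor activates NFAT.

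The depth was 43402632 to 64290105 counted reads per sample, and 15197 genes with at least 0.5 FPKM (sequenced fragments relative to transcript length and library size) in at least 3 samples were tested. T cell genes were high in every group, with 12 of them summing to 2603 to 2662 FPKM in Control, 2395 to 2518 in Metformin, 2182 to 2293 in FK506 and 2273 to 2381 in Metformin+FK506. The marker lists of other cells differed between groups. The 10 B cell genes summed to 51.3 to 53.3 FPKM in Control, 67.6 to 75.5 in Metformin, 838 to 887 in FK506 and 410 to 441 in Metformin+FK506. The 10 neutrophil genes summed to 2.96 to 3.19, 0.0561 to 0.230, 35.1 to 45.6 and 19.8 to 22.1 FPKM in the same order. Nearly all of the Control sum was Ly6g (a mean of 3.03 FPKM), which was lower in the other groups, while S100a8 and S100a9 were at 0 without FK506 and had means of 6.72 and 11.4 FPKM in Metformin+FK506. The 8 dendritic cell genes summed to 2.67 to 2.86, 4.46 to 5.24, 62.7 to 69.2 and 40.5 to 43.8 FPKM, and the 6 NK and CD8 T cell genes to means of 10.6, 18.7, 21.4 and 21.3 FPKM. The 8 red cell and platelet genes summed to means of 0.743, 1.63, 11.5 and 16.7 FPKM. The part of these other cells in the results below was not tested. In bulk RNA, fewer cells of a type and less RNA per cell cannot be told apart.

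The 39 genes separated the samples by FK506. Their summed level was 218 ± 7.66 FPKM (SD, n = 3) in Control, 216 ± 4.48 in Metformin, 3266 ± 108 in FK506 and 2691 ± 107 in Metformin+FK506. As a share of counted reads the list held 0.0555% to 0.0581% in Control, 0.0480% to 0.0506% in Metformin, 0.572% to 0.621% in FK506 and 0.507% to 0.525% in Metformin+FK506. Lyz2 made up much of the distance between the last pair of groups. Without it, the other 38 genes summed to 2193 to 2391 FPKM in FK506 and 2096 to 2205 FPKM in Metformin+FK506, which overlapped. Their shares of counted reads, 0.461% to 0.506% and 0.447% to 0.456%, did not overlap and were lower with both drugs. At a mean of 0.5 FPKM or more, 10 members were present in Control, 12 in Metformin, 38 in FK506 and 38 in Metformin+FK506.

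**Figure D1:**
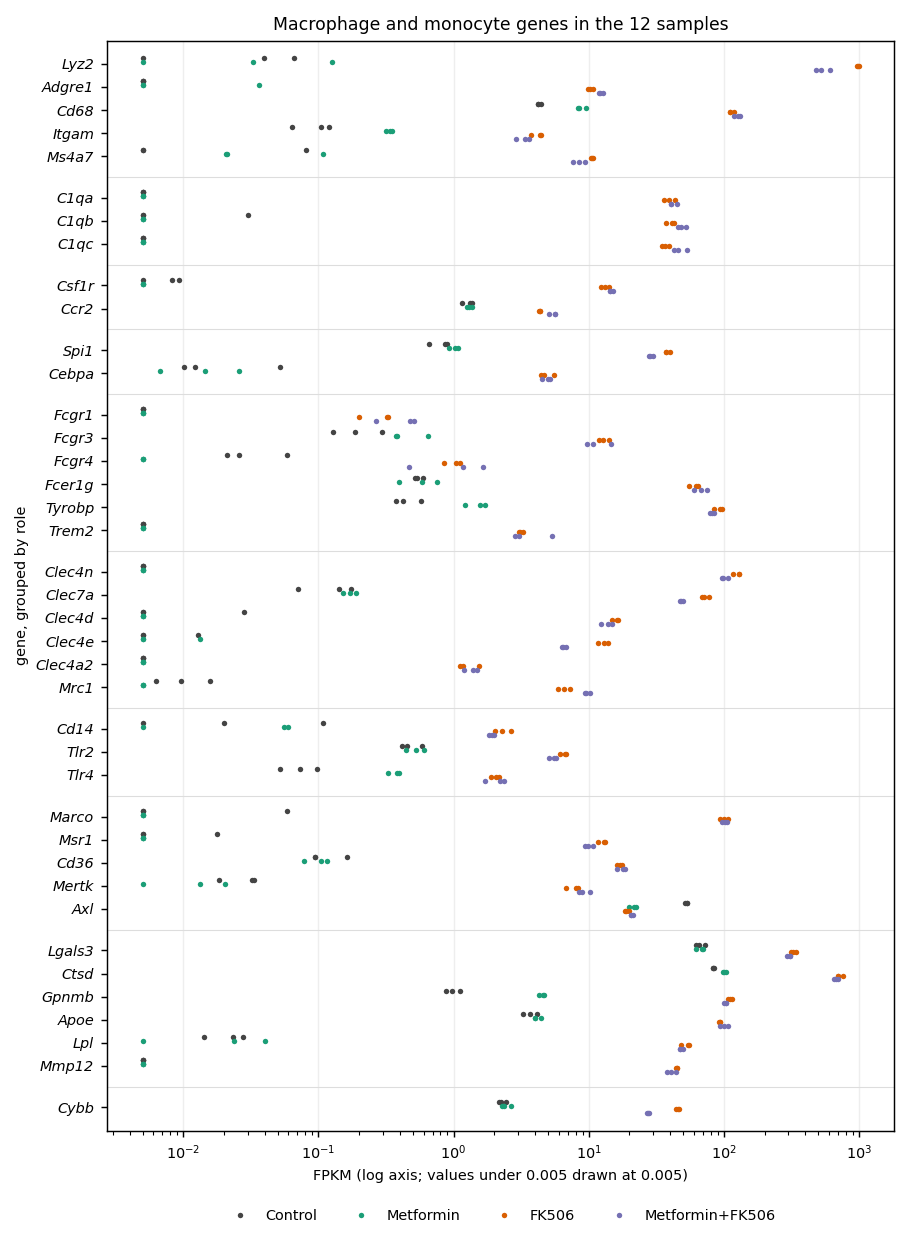
FPKM (log axis) of the 39 genes, grouped by role, with 1 point for each of the 12 samples coloured by group; values under 0.005 are drawn at 0.005. For every gene except Axl the 6 samples with FK506 lie above the 6 without it, and Axl is highest in the 3 Control samples.

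Several members lie side by side on the chromosomes (mm10 coordinates of the same assembly, GRCm38.p6). The genes of the 3 chains of C1q span 18.7 kb at chr4:136880126-136898844. Clec4a2, Clec4n, Clec4d and Clec4e span 167 kb at chr6:123122690-123289871, and Fcgr4, Fcgr3 and Fcer1g span 215 kb at chr1:171018926-171234349. The other members are spread over the genome, and the list touches 16 chromosomes in all. Near-identical stretches within the Clec4 and Fcgr families, and between Lyz2 and Lyz1, can share reads, and how such reads were counted is not given in the sources used here, so the values of these genes are uncertain.

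Promoter sequence was available from RefSeq (GRCm38.p6) for 29 of the 39 members, as windows of 250 bases before to 50 bases after each start. The letters GAGGAA, the core that PU.1 and other ETS family factors recognise, were present on either strand in 18 of the 29 members (62.1%), against 31.1% of the 10538 tested genes with a window and 31.3% of all genes with one. The longer PU.1 motif GAGGAAGT, which contains the core, was present in 3 of 29 members, C1qc, Fcgr4 and Mmp12 (10.3%, against 4.19% of tested and 3.69% of all genes). The C/EBP motif TTGCNNAA was present in 5 of 29 (17.2%, against 10.6% and 12.2%), all motifs being searched on both strands. A match describes the letters of a window and is not a measured binding site. The 150 bases before the start are shown for C1qb, Mmp12 and Clec7a, which lay near 0 in every sample without FK506 and were present in every sample with it, and for Clec4e and Mrc1, the members that differed most, in opposite directions, when metformin was added to FK506. These 5 were chosen after their levels were seen. A stretch was shown only if it held GAGGAA or its reverse complement TTCCTC, so all 5 hold these letters by construction. The stretches read 5′ to 3′ on the strand of the gene, with GAGGAA or TTCCTC in capitals.
C1qb (chr4:136886201-136886350, minus strand): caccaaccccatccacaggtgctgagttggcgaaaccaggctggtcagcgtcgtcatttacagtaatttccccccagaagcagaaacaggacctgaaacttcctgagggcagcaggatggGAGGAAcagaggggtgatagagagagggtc
Clec4e (chr6:123289872-123290021, minus strand): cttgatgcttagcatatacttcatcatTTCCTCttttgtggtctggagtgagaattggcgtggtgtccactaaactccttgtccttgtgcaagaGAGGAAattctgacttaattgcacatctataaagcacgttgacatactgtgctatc
Clec7a (chr6:129472780-129472929, minus strand): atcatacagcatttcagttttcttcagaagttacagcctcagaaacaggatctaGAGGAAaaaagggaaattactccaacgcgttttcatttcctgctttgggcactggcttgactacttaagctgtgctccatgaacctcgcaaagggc
Mmp12 (chr9:7344247-7344396, plus strand): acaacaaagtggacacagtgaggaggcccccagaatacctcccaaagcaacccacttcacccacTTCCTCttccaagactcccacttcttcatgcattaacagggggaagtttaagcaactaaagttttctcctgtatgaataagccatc
Mrc1 (chr2:14229264-14229413, plus strand): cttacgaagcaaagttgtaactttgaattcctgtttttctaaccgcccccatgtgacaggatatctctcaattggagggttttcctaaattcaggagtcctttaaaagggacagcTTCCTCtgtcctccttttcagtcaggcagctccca
Counted back from the base before the start (-1), the capitals begin at -30 in C1qb, -123 and -56 in Clec4e, -96 in Clec7a, -86 in Mmp12 and -35 in Mrc1. In Mmp12 the capitals are part of the longer PU.1 motif.

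FK506 against Control asked which of these transcripts differ when calcineurin is blocked during stimulation. Of the 39 genes, 38 were tested, 37 were higher and Axl was lower (edgeR's quasi-likelihood test, Benjamini-Hochberg adjusted p under 0.05), where 41.3% of all tested genes were higher and 39.6% lower (80.9% in either direction). The 3 samples of each group did not overlap for 38 members that were higher, Fcgr1 included, and for Axl, which was lower, where 51.5% and 32.9% of tested genes did not overlap in those directions. A total of 26 members entered the test only through their level in FK506 and Metformin+FK506 and so had to differ. The other 12 also passed the filter in at least 3 Control or Metformin samples, and of these 11 rose with FK506 and Axl fell. The 11 were Cd68, Ccr2, Spi1, Fcer1g, Tyrobp, Tlr2, Lgals3, Ctsd, Gpnmb, Apoe and Cybb. Members with at most 10 reads in every Control sample have too few for a fold change and are given by their reads and levels, or by a lower bound where Control was at the floor. Fcgr1, the high-affinity Fc receptor for IgG, was not tested: it was at 0 in the 6 samples without FK506, at 0.198, 0.324 and 0.329 FPKM in FK506 and at 0.475, 0.265 and 0.510 in Metformin+FK506. The B cell, neutrophil and dendritic cell lists moved with the members here: 10 of 10, 6 of 7 and 4 of 4 tested genes were higher with FK506. Of these, 2 B cell, 6 neutrophil and 2 dendritic cell genes passed the filter only through the FK506 groups and so had to be higher. All 4 tested red cell and platelet genes were higher, 3 of which passed the filter in that way. Of 4 tested NK and CD8 T cell genes, 2 were higher and 1 was lower, and of 12 T cell genes 4 were higher and 8 lower (median -0.44). Their part in the result was not tested.

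Among the identity genes, Lyz2, which encodes a secreted lysozyme that breaks bacterial cell walls, was counted in 3, 0 and 5 reads in the Control samples and in 0, 3 and 9 reads in the Metformin samples. In FK506 it reached 972, 978 and 993 FPKM, the highest level of any member, and in Metformin+FK506 483, 525 and 610 FPKM. The groups without and with FK506 did not overlap, and neither did those with FK506 alone and with both drugs. Adgre1, which encodes the surface protein F4/80, had 0 reads in Control and lay at 10.2, 9.83 and 10.8 FPKM in FK506, at least 551-fold higher. That bound sets Control at 3 reads per library and, like the other bounds given here, covers counting error only. Cd68, an endosomal and lysosomal glycoprotein, was present without FK506, at 4.25, 4.41 and 4.22 FPKM in Control, and stood at 111, 111 and 118 FPKM in FK506, a rise of 4.50 ± 0.057 on the log2 scale (SE, adjusted p = 6.71e-19). Itgam (CD11b) rose by 5.17 ± 0.17. Ms4a7, a membrane protein of macrophages, had 7, 0 and 0 reads in Control and 980, 881 and 711 in FK506. Of these 5 identity genes, only Cd68 also passed the filter without the FK506 groups.

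The markers Lyz2, C1qa and Adgre1 were present in all 6 samples that received FK506. In Control all 3 were at or near the floor, taken as 3 reads or fewer in every sample. In all, 12 members were at the floor in Control and 15 in Metformin, 11 of them in both, and none was in FK506 or Metformin+FK506.

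The 3 chains of C1q, the protein that starts the classical complement pathway and is made mostly by macrophages, were absent without FK506 apart from a low C1qb value of 0.0300 FPKM in Control sample 2. In FK506 C1qa lay at 43.4, 35.8 and 39.6 FPKM, C1qb at 42.5, 37.4 and 41.3, and C1qc at 39.4, 35.1 and 36.7. The chains lay close to each other within each sample on the per-length scale. Against Control, C1qa was at least 715-fold, C1qb at least 744-fold and C1qc at least 658-fold higher.

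Of the receptors that bring monocytes in and sustain macrophages, Csf1r had 2, 2 and 0 reads in Control and was at 12.4, 13.1 and 14.2 FPKM in FK506, at least 856-fold higher. Ccr2, the receptor for the monocyte chemokine CCL2, was present in all groups at 1.15, 1.33 and 1.38 FPKM in Control and 4.39, 4.31 and 4.37 in FK506, a rise of 1.52 ± 0.092 (adjusted p = 1.47e-10). Ccr2 is also expressed by activated T cells. The lineage factor Spi1 stood at 0.863, 0.899 and 0.656 FPKM in Control and at 37.4, 37.4 and 39.8 in FK506, a rise of 5.35 ± 0.097 (adjusted p = 2.64e-17). Cebpa, a factor of early myeloid cells, rose from 8, 2 and 2 reads in Control, a mean of 0.0247 FPKM, to 4.87 ± 0.577 FPKM (SD, n = 3).

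The Fc receptors and the adaptors that carry their ITAM signal differed widely in level. The adaptors Tyrobp (DAP12) and Fcer1g (the shared Fc receptor gamma chain) had FK506 means of 91.4 ± 6.74 and 60.8 ± 4.97 FPKM (SD, n = 3), against 0.458 ± 0.107 and 0.548 ± 0.0395 in Control. The receptors Fcgr3 and Fcgr4 and the lipid receptor Trem2 were lower, at FK506 means of 12.9, 1.01 and 3.13 FPKM. Tyrobp rose by 7.36 ± 0.13 and Fcer1g by 6.53 ± 0.15, both past the threshold. Fcgr3, Fcgr4 and Trem2 passed the filter only through the FK506 groups and so had to be higher. Fcgr3 was higher by 5.17 ± 0.20 and Trem2 by at least 58.0-fold. Fcgr4 had 4, 2 and 2 reads in Control and 96, 69 and 66 in FK506.

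The C-type lectins, which bind sugars on fungi and mycobacteria, included members with no read in any sample without FK506. Clec4n (dectin-2) had no read in Control or Metformin and lay at 129, 116 and 130 FPKM in FK506, at least 2534-fold higher. Clec7a (dectin-1) stood at 0.143, 0.0707 and 0.173 FPKM in Control and 71.5, 68.8 and 77.1 in FK506, a rise of 8.85 ± 0.11. All 6 lectins passed the filter only through the FK506 groups. For Clec4e (Mincle), Clec4d and Clec4a2 the lower bounds were 540-fold, 353-fold and 53.6-fold. Mrc1, the mannose receptor, rose from 5, 2 and 4 reads in Control to 2171, 2226 and 1931 in FK506, a mean of 6.60 ± 0.663 FPKM (SD, n = 3).

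The pattern receptors were low in every group. Tlr2, a receptor for bacterial lipoproteins, had means of 0.484 FPKM in Control and 6.55 in FK506, Tlr4, the receptor for lipopolysaccharide, 0.0743 and 2.04, and Cd14, which hands lipopolysaccharide to it, 0.0431 and 2.32. All of them rose, Tlr2 and Tlr4 by 3.54 ± 0.13 and 4.56 ± 0.18 on the log2 scale, and Cd14 from 10, 2 and 0 reads in Control to 232, 241 and 219 in FK506.

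Among the scavenger receptors, Marco, known from marginal zone and alveolar macrophages, lay at 101, 92.9 and 108 FPKM in FK506 and at 0.0590, 0 and 0 in Control, where all 6 reads came from replicate 1. Msr1 and Cd36 take up modified lipoproteins. Msr1 had 0, 0 and 5 reads in Control and 3307, 2697 and 2410 in FK506, and Cd36 rose by 6.87 ± 0.12. Mertk, a receptor that engulfs dying cells, had 9, 10 and 6 reads in Control and reached a mean of 7.74 ± 0.833 FPKM (SD, n = 3). Axl, a TAM family receptor like Mertk, went the other way. It lay at 53.5, 51.2 and 53.1 FPKM in Control, 22.2, 19.8 and 21.6 in Metformin, 19.0, 18.4 and 19.9 in FK506 and 21.3, 20.7 and 20.7 in Metformin+FK506. All 3 Control samples were above the other 9, and Axl fell by 1.58 on the log2 scale with FK506 (SE 0.048, adjusted p = 2.00e-14). Axl was the member with the third highest level in Control after Ctsd and Lgals3.

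The lysosomal, lipid and protease genes held Ctsd and Lgals3, the highest members in Control. Ctsd, a lysosomal protease found in most cells, lay at 84.9, 83.1 and 82.5 FPKM in Control and 705, 702 and 762 in FK506. Lgals3, a galectin that activated T cells also express, lay at 72.0, 61.7 and 65.1 in Control and 325, 313 and 344 in FK506. Their rises of 2.90 ± 0.041 and 2.09 ± 0.056 were, after that of Ccr2, the smallest among the 37 members that rose. Gpnmb, a lysosomal membrane glycoprotein, rose by 6.60 ± 0.062 from 0.990 ± 0.116 to 111 ± 3.39 FPKM (SD, n = 3), and Apoe, which carries lipid, by 3.74 ± 0.061 from 3.70 ± 0.456 to 93.6 ± 0.684. Lpl, which splits triglycerides, had FK506 values of 53.9, 48.3 and 54.9 FPKM and 6, 4 and 6 reads in Control, a mean of 0.0218 FPKM. Mmp12, the macrophage elastase, had no read in Control or Metformin and lay at 44.5, 45.2 and 45.1 FPKM in FK506, at least 2706-fold higher. Cybb, the catalytic subunit of the phagocyte NADPH oxidase, lay at 2.17, 2.25 and 2.46 FPKM in Control and 43.9, 45.8 and 46.7 in FK506, a rise of 4.09 ± 0.058 (adjusted p = 1.68e-18).

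Against the groups without FK506, the combination gave the same counts. Metformin+FK506 against Control had 37 members higher and Axl lower, where 42.1% of tested genes were higher and 39.6% lower (81.7% in either direction), and no member's samples overlapped between these groups, as for 49.0% (higher) and 33.0% (lower) of tested genes. Metformin+FK506 against Metformin had 37 higher and 1 lower, where 40.3% were higher and 37.9% lower (78.2% in either direction), and the samples of 38 members, higher, did not overlap, as for 47.3% (higher) and 30.9% (lower) of tested genes. Of the 12 members that also passed the filter in at least 3 Control or Metformin samples, 11 were higher and Axl was lower in each of these comparisons. Against Metformin the samples of Axl overlapped between the groups and its level differed by -0.22 ± 0.048 on the log2 scale (adjusted p = 5.68e-04). That call was lost with library totals in place of TMM factors (adjusted p = 0.489) and with limma on log2(FPKM + 1) (adjusted p = 0.717). These comparisons share samples with FK506 against Control and with each other.

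Adding metformin to FK506 gave members that were higher and members that were lower, in shares near those of all tested genes. In Metformin+FK506 against FK506, 7 members were higher, 7 were lower and 24 did not pass the threshold, where 15.6% of tested genes were higher and 15.0% lower. The count of higher members was 4 without FK506 replicate 2 and 3 with limma on log2(FPKM + 0.1), and that of lower members was 11 with DESeq2. The share of members called was 14 of 38, beside 30.7% of all tested genes. The median log2 fold change of the members was -0.07, beside 0.00 for all genes, and every called member differed by less than 1 in log2 units. The samples of the groups did not overlap for 10 members that were higher and 14 that were lower, where 16.4% and 22.2% of tested genes did not overlap in those directions.

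The C-type lectin Clec4e had the lowest value. It lay at 11.7, 12.9 and 14.0 FPKM in FK506 and at 6.78, 6.39 and 6.47 in Metformin+FK506, and fell by 0.95 on the log2 scale (SE 0.13, adjusted p = 3.54e-05). Lyz2 fell by 0.84 (SE 0.078, adjusted p = 6.01e-07), from the 981 ± 10.8 FPKM of FK506 to 539 ± 64.5 (SD, n = 3). Cybb lay at 27.9, 27.4 and 27.1 FPKM in Metformin+FK506, below its 3 FK506 values, and fell by 0.70 (SE 0.048, adjusted p = 1.87e-08). Clec7a lay at 50.2, 47.0 and 48.2 FPKM, and fell by 0.56 (SE 0.057, adjusted p = 1.65e-06). Spi1 lay at 27.7, 29.8 and 28.3 FPKM, and fell by 0.39 (SE 0.068, adjusted p = 3.50e-04). None of these 5 genes had samples that overlapped between the groups, and the levels with both drugs stayed far above Control for each. Clec4n and Msr1 were also lower, by -0.29 ± 0.056 (adjusted p = 0.00208) and -0.30 ± 0.10 (adjusted p = 0.0385). The call of Msr1 was lost when any 1 of 4 samples was left out, with adjusted p between 0.0654 and 0.129 without FK506 replicate 1 or 3 or without Metformin+FK506 replicate 1 or 2.

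Mrc1 was the member with the highest value in this comparison. It lay at 5.95, 6.57 and 7.28 FPKM in FK506 and at 10.2, 9.33 and 9.51 in Metformin+FK506, and rose by 0.58 ± 0.080 (adjusted p = 8.57e-05). C1qc lay at 43.1, 46.1 and 53.1 FPKM with both drugs, and rose by 0.39 ± 0.081 (adjusted p = 0.00336). Ccr2 lay at 5.64, 5.64 and 5.07 FPKM, and rose by 0.34 ± 0.086 (adjusted p = 0.00609). C1qb lay at 52.3, 45.5 and 47.9 FPKM, and rose by 0.29 ± 0.080 (adjusted p = 0.0138). Cd68 lay at 131, 119 and 127 FPKM, and rose by 0.18 ± 0.043 (adjusted p = 0.00559). The groups did not overlap for these 5 genes. The call of C1qb was lost without FK506 replicate 2 (adjusted p = 0.0813) and without Metformin+FK506 replicate 1 (adjusted p = 0.0780). With limma on log2(FPKM + 0.1), C1qb (adjusted p = 0.116) and Cd68 (adjusted p = 0.0587) lost their calls. Apoe (0.17 ± 0.050, adjusted p = 0.0169) and Axl (0.16 ± 0.048, adjusted p = 0.0187) passed the threshold narrowly, and both calls were lost with limma at either offset and with no filter. Apoe also lost its call in an edgeR fit of only these groups (adjusted p = 0.0524). Leaving out FK506 replicate 1, 2 or 3 or Metformin+FK506 replicate 2 or 3 brought Apoe to an adjusted p between 0.0520 and 0.0975. Leaving out FK506 replicate 1 or 2 or Metformin+FK506 replicate 1 or 3 brought Axl to between 0.0607 and 0.102.

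**Figure D2:**
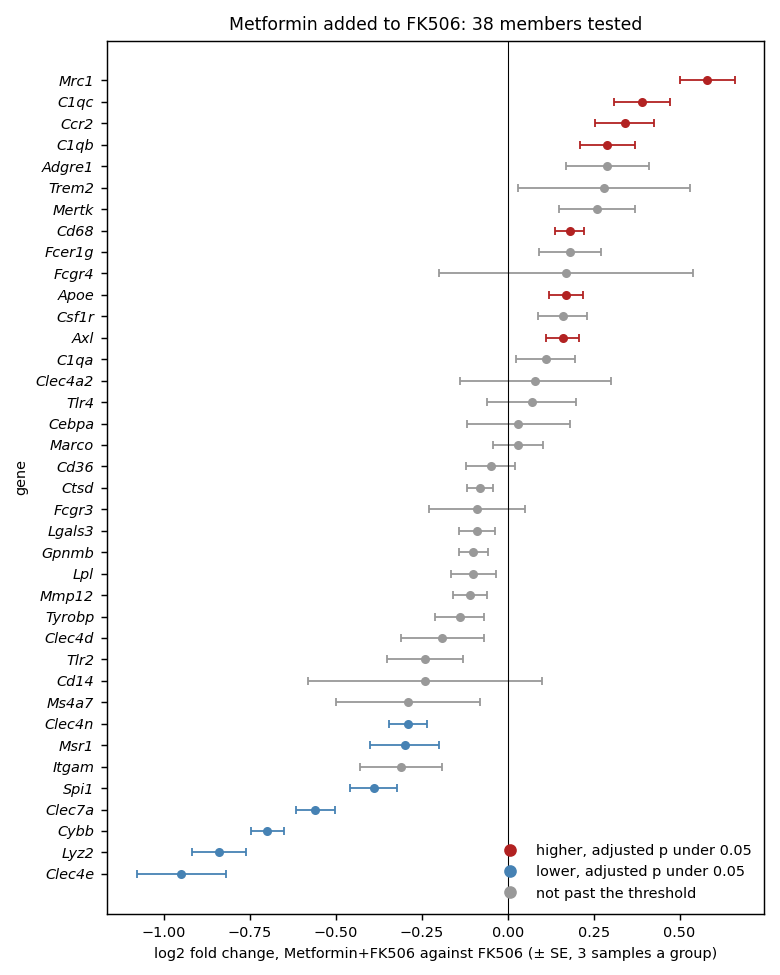
Log2 fold change of Metformin+FK506 against FK506 for the 38 members tested, with bars of 1 SE from edgeR's fit on 3 samples a group. The 7 members in red (higher) and 7 in blue (lower) passed an adjusted p of 0.05, and the values run from -0.95 for Clec4e to 0.58 for Mrc1.

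Within a role, calls differed from gene to gene, and the differences between genes were not tested. Of the 6 C-type lectins, Clec4e, Clec7a and Clec4n fell, Mrc1 rose, and Clec4d (-0.19 ± 0.12) and Clec4a2 (0.08 ± 0.22) did not pass the threshold. Clec4d lies next to Clec4e and Clec4n on chromosome 6. Of the C1q chains, C1qb and C1qc rose and C1qa differed by 0.11 ± 0.085 (adjusted p = 0.382), with samples that overlapped. Spi1 fell while Cebpa differed by 0.03 ± 0.15 (adjusted p = 0.898). No Fc receptor or adaptor and none of Tlr2, Tlr4 and Cd14 passed the threshold in the edgeR fit of all groups. Marco, at 105, 102 and 96.1 FPKM with both drugs, differed by 0.03 ± 0.074 (adjusted p = 0.808). Adgre1 and Mertk had higher values in all 3 samples with both drugs (0.29 ± 0.12, adjusted p = 0.0862, and 0.26 ± 0.11, adjusted p = 0.0749), and Itgam lower values in all 3 (-0.31 ± 0.12, adjusted p = 0.0559), without passing the threshold in the fit of all groups. DESeq2 called these 3 genes past it (adjusted p = 0.00202, 0.0349 and 0.0242), and also Tlr2, Ctsd and Gpnmb, all lower (adjusted p = 0.0491, 0.0472 and 0.0187). On simulated counts DESeq2 made 28 false calls, against 7 for edgeR. In an edgeR fit of only these groups, Adgre1, Mertk, Itgam and Tlr2 passed (adjusted p = 0.00437, 0.0341, 0.0361 and 0.0421). With limma on log2(FPKM + 1), Adgre1, Itgam, Ms4a7 and Tlr2 passed (adjusted p = 0.00817, 0.0217, 0.0109 and 0.0349). Itgam also passed with library totals (adjusted p = 0.0488) and without Control replicate 1 or 3, FK506 replicate 2 or Metformin+FK506 replicate 3 (adjusted p between 0.0304 and 0.0479). Adgre1 passed without Metformin replicate 1 or 2 (adjusted p = 0.0477 and 0.00885), and Mertk without Metformin replicate 2 (adjusted p = 0.0320).

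Set against Lyz2 within the same sample, nearly every member took a larger value with both drugs. Mrc1 was 0.673% ± 0.0602 of the Lyz2 FPKM in FK506 and 1.82% ± 0.276 in Metformin+FK506 (SD, n = 3). C1qc was 3.78% ± 0.247 and 8.81% ± 0.116, and Adgre1 1.05% ± 0.0391 and 2.29% ± 0.215. The ratio was higher without overlap for 35 of 38 members, beside 83.3% of all tested genes, and Lyz2 itself fell. The exceptions, Clec4e, Cybb and Fcgr4, overlapped. With the sum of the other members in place of Lyz2, 23 were higher without overlap and 4 lower (Clec4e, Cybb, Clec7a and Spi1), beside 53.0% and 6.34% of tested genes, but that sum contains Lyz2. With Lyz2 taken out of the sum, 12 were higher and 8 lower, beside 23.8% and 12.2%.

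Genes that work with the members were read from lists written with earlier results of these data known. Of 56 tested, 9 were higher and 19 lower when metformin was added to FK506, with a median of -0.06. Of all tested genes 15.6% were higher and 15.0% lower. Of the 8 genes of ITAM and lectin signalling, 6 fell and none rose (median -0.43). They were Syk, the kinase that docks on ITAM adaptors (-0.31, adjusted p = 1.17e-04), its partner in the dectin pathway Card9 (-0.85, adjusted p = 0.00123), the kinases Lyn (-0.46, adjusted p = 3.37e-05), Fgr (-0.62, adjusted p = 4.56e-04) and Btk (-0.68, adjusted p = 2.02e-07), and Plcg2 (-0.39, adjusted p = 1.44e-05). B cells also use Syk, Lyn, Btk and Plcg2. Among other oxidase subunits, Ncf1 fell from 136 ± 2.55 to 65.4 ± 1.32 FPKM (SD, n = 3) (-1.03, adjusted p = 2.89e-11), Ncf4 fell (-0.28, adjusted p = 8.23e-04), and Cyba and Rac2 did not pass the threshold. Of the ligands, Gas6, which binds Axl and Mertk (0.86, adjusted p = 0.00303), Pros1, which binds Mertk (1.19, adjusted p = 2.47e-09), and Csf1 (0.37, adjusted p = 4.61e-04), which binds the product of Csf1r, rose. Unlike Gas6 and Csf1, Pros1 stayed below Control. Its means were 27.4, 20.2, 2.36 and 5.30 FPKM in Control, Metformin, FK506 and Metformin+FK506. The ligand genes Ccl2, Ccl7 and Ly96 did not pass the threshold.

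Genes of splenic tissue macrophages, whose red pulp population recycles iron, were near 0 without FK506 apart from Hmox1. Hmox1, the haem oxygenase that many stressed cells make, had means of 8.44, 13.1, 446 and 506 FPKM in Control, Metformin, FK506 and Metformin+FK506. Slc40a1, the iron exporter ferroportin, was at 0 in Control and Metformin and at 53.0 ± 1.06 and 65.7 ± 0.502 FPKM in the other groups. Cd163 (means of 0.0231 and 0.281 FPKM in FK506 and Metformin+FK506) and Vsig4 (0.118 and 0.111) stayed low with FK506 and were not tested. The 7 tested genes of this list, 6 of which passed the filter only through the FK506 groups, had a median of 0.03 between those groups. Slc40a1 (0.34, adjusted p = 3.37e-05) and Hmox1 (0.21, adjusted p = 0.00148) rose and Timd4 (-1.18, adjusted p = 0.00669) fell, from a mean of 1.30 to 0.533 FPKM. Of 16 lysosome and lipid genes, 1 rose and 5 fell (median -0.06), beside 15.6% and 15.0% of all tested genes.

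Marker lists of other cells moved in the same comparison, where 15.6% of all tested genes were higher and 15.0% lower. All 10 B cell genes were lower with both drugs (median -0.99), 3 of 7 tested neutrophil genes (median -0.73) and 3 of 4 tested dendritic cell genes (median -0.59) were lower, and of 12 T cell genes 5 were higher and 4 lower (median 0.01). The NK and CD8 T cell genes had a median of 0.02. Of 4 tested red cell and platelet genes, the globin gene Hbb-bs was higher (1.20, adjusted p = 0.0429), with a median of 0.67 for the list. Among the neutrophil genes S100a9 lay at 19.2 ± 3.10 FPKM in FK506 and 11.4 ± 1.02 in Metformin+FK506, and Ly6g at 0.175 ± 0.126 and 0.255 ± 0.264 (SD, n = 3). Of the dendritic cell genes, Flt3 fell from 32.3 to 21.7, Zbtb46 from 22.1 to 14.2 and Itgax, which macrophages also express, from 8.87 to 5.02 FPKM, while Xcr1 and Siglech had means under 0.1 FPKM in both groups. B cells and neutrophils also express some members, among them Spi1 and Cybb, and the part of these cells in the members' differences was not tested.

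**Figure D3:**
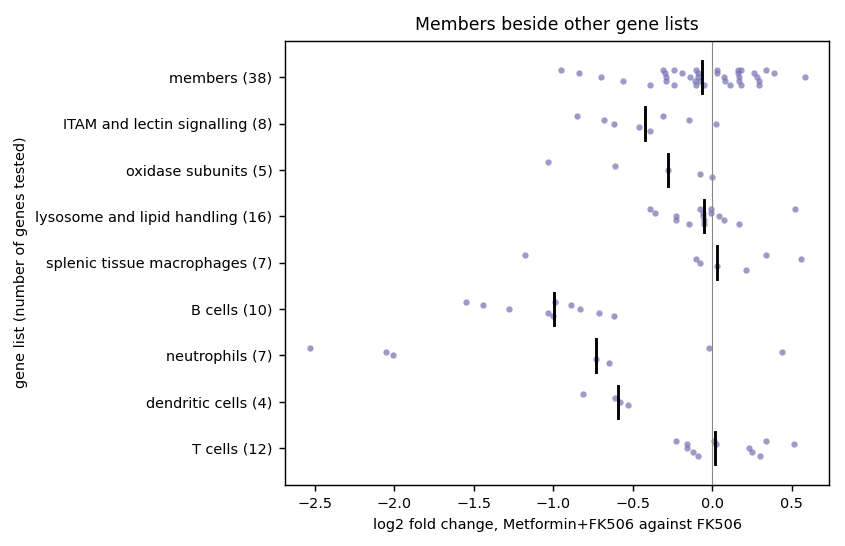
Log2 fold change of Metformin+FK506 against FK506, 1 point per tested gene, for the members and 8 other gene lists, with the median of each list as a black bar. The median is -0.07 for the 38 members, -0.99 for the 10 B cell genes, -0.43 for the 8 genes of ITAM and lectin signalling and 0.01 for the 12 T cell genes.

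With metformin alone the summed level of the members, 213 to 221 FPKM, overlapped that of Control, 212 to 227 FPKM. Their share of counted reads was lower without overlap, at 0.0480% to 0.0506% against 0.0555% to 0.0581%. Without Axl, which fell, the other 38 members held 0.0377% to 0.0389% in Metformin against 0.0306% to 0.0327% in Control, and summed to 192 to 199 against 160 to 173 FPKM, both higher without overlap. Most of these sums was Ctsd, with means of 83.5 FPKM in Control and 101 in Metformin, and Lgals3, with 66.3 and 67.2. In Metformin against Control, 8 members were higher and 4 lower, where 28.6% of tested genes were higher and 27.4% lower. Of the 12 members that passed the filter in Control or Metformin samples, 5 were higher and 1 was lower. Gpnmb lay at 1.12, 0.968 and 0.886 FPKM in Control and 4.61, 4.27 and 4.66 in Metformin, 4.47-fold higher (log2 2.16 ± 0.067, adjusted p = 1.82e-13). Cd68 lay at 8.35, 8.49 and 9.58 FPKM in Metformin, 2.01-fold above Control (log2 1.00 ± 0.064, adjusted p = 1.23e-09). Tyrobp lay at 0.373, 0.423 and 0.578 FPKM in Control and 1.70, 1.21 and 1.57 in Metformin (log2 1.63 ± 0.21, adjusted p = 6.70e-06). In all 3 genes every Metformin sample lay above every Control sample.

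Tlr4 and Itgam were low but also separate, with 41, 35 and 26 reads of Tlr4 in Control and 145, 180 and 181 in Metformin (log2 2.28 ± 0.20, adjusted p = 6.62e-08). Itgam had 16, 30 and 36 reads in Control and 84, 96 and 97 in Metformin (log2 1.73 ± 0.19, adjusted p = 1.13e-06). Fcgr3 (0.98 ± 0.26, adjusted p = 0.00385) and Ctsd (0.24 ± 0.039, adjusted p = 5.41e-05) were higher, and so was Apoe (0.23 ± 0.068, adjusted p = 0.00774), whose samples overlapped. With limma on log2(FPKM + 1), Fcgr3 (adjusted p = 0.0864) and Apoe (adjusted p = 0.112) did not pass. Axl fell by 1.19 (SE 0.048, adjusted p = 3.94e-12). The other 3 lower calls, Mrc1, Fcgr4 and Csf1r, rest on 0 to 5 reads per sample, with 5, 2 and 4 reads of Mrc1 in Control and 0 in Metformin, and are too few for a fold change.

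Other lists also moved with metformin alone, where 28.6% of all tested genes were higher and 27.4% lower. Of the 10 B cell genes 7 were higher and 1 lower, of the 7 tested neutrophil genes none was higher and Ly6g was lower, and of the 8 genes of ITAM and lectin signalling 7 were higher. Of the 12 T cell genes 5 were higher and 5 lower, and of the 4 tested red cell and platelet genes 1 was higher. All 4 tested NK and CD8 T cell genes were higher (median 1.34), and the summed level of that list went from 10.6 ± 0.228 to 18.7 ± 0.552 FPKM (SD, n = 3). Eomes, a factor of NK and CD8 T cells, had means of 1.22 and 5.01 FPKM, and Ncr1, which marks NK cells, 0.0267 and 0.00788. Klre1 and Klrb1c of the same list went up, from 0.121 to 0.496 and from 0 to 0.0478 FPKM. Ncr1 and Klrb1c were not tested. NK cells also express Tyrobp, Fcgr3 and Itgam. Of the 4 tested dendritic cell genes, Zbtb46 was higher (1.06, adjusted p = 4.36e-10). Of the 7 tested splenic tissue macrophage genes 2 were higher and 2 lower. Only Hmox1, which was higher, was present without FK506, and the calls of Siglec1, Vcam1 and Cd5l rest on means under 0.1 FPKM. Lyz2 did not pass the threshold (adjusted p = 0.686), and C1qa, C1qc, Clec4n and Mmp12 had no read in either group. The part of B cells, NK cells and dendritic cells in the higher members was not tested.

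The interaction of metformin and FK506 tests whether metformin changed a gene by the same factor in both settings. A factor is relative to the level without metformin, which differed with FK506, so the test does not compare amounts. Mean Cd68, for example, went from 4.29 to 8.81 FPKM without FK506 and from 113 to 126 FPKM with it. It was read for the 10 members with a mean of at least 0.5 FPKM in all 4 groups, of which 7 passed the threshold, beside 46.5% of all tested genes. Gpnmb was 2.16 higher on the log2 scale with metformin alone and differed by -0.10 when metformin was added to FK506, an interaction of -2.26 ± 0.080 (SE, adjusted p = 2.15e-12). Axl differed by -1.19 and 0.16, an interaction of 1.36 ± 0.068 (adjusted p = 1.26e-10). Cd68 was higher in both settings, by 1.00 and 0.18 (interaction -0.83 ± 0.077, adjusted p = 2.38e-07). Cybb differed by 0.06 without FK506 and -0.70 with it (interaction -0.76 ± 0.079, adjusted p = 8.70e-07), Spi1 by 0.29 and -0.39 (-0.68 ± 0.15, adjusted p = 0.00139), and Ctsd by 0.24 and -0.08 (-0.32 ± 0.054, adjusted p = 1.27e-04). The interaction of Ccr2 (0.35 ± 0.13, adjusted p = 0.0365) was lost in 9 of the 12 fits that left out a sample (Control replicate 2 or 3, Metformin replicate 1 or 3, FK506 replicate 1, 2 or 3, Metformin+FK506 replicate 1 or 2), at adjusted p between 0.0543 and 0.102. Fcer1g (0.14 ± 0.29), Lgals3 (-0.08 ± 0.077) and Apoe (-0.07 ± 0.084) did not pass the threshold.

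**Figure D4:**
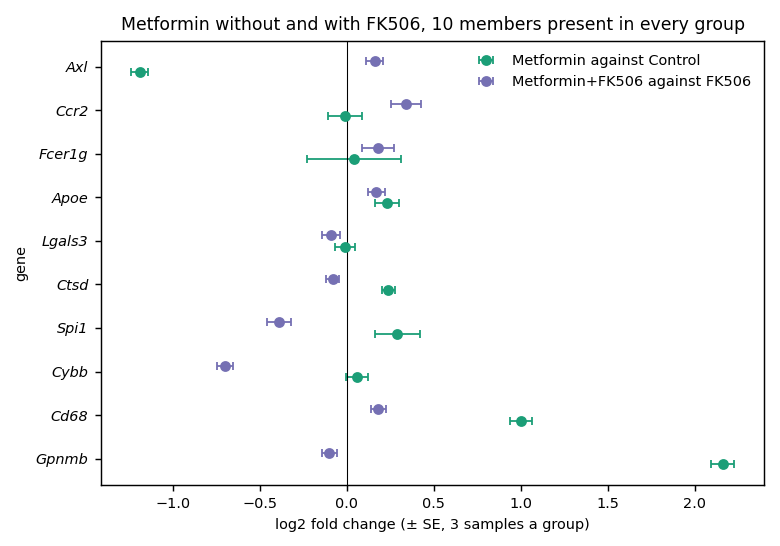
Log2 fold change with metformin, without FK506 (green) and with it (purple), for the 10 members with at least 0.5 FPKM on average in every group, with bars of 1 SE. Gpnmb and Axl lie farthest apart, at 2.16 against -0.10 and at -1.19 against 0.16.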

How the data were processed

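RNA of 12 samples in 4 groups of 3 was analysed, with groups taken from the treatment label. The deposited table gives the authors' read count for each gene, an unnormalized whole number, and the FPKM value the authors computed, scaled to library size and transcript length. The table's further 12 per-sample columns were left aside. The submitters' processing notes name bcl2fastq 2.20.0, Trimmomatic, HISAT2 2.1.0, StringTie 2.1.3b and mm10, with no role or settings. Whether strand was used in counting is not given in the sources used here.

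Counts of the 15197 genes with at least 0.5 FPKM in at least 3 samples were fitted across all 4 groups with edgeR 4.0.16 (quasi-likelihood test, TMM factors, 8 residual degrees of freedom) in R 4.3.3, with Benjamini-Hochberg adjustment over these genes and a threshold of 0.05. The groups were compared in 5 contrasts, and the interaction was tested. Levels are FPKM, mean ± SD; log2 fold changes carry the SE of the fit. The floor of a group was at most 3 counts in each of its samples, and folds against such a group are lower bounds. Replicates differed by more than sampling noise (chi-square per degree of freedom 4.31 to 17.6). The labels give no batch or date. On simulated counts for Metformin+FK506 against FK506, with 200 genes changed by a factor of 2, edgeR called 169 and made 7 false calls. DESeq2 called 174 with 28 false calls, and limma 172 with 6. The simulation changed fewer genes than were called in the data, and by a larger factor than that of any called member. It therefore does not give the error rate or the sensitivity of the calls reported here.

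The members and lists were chosen with earlier results of these data known. All members may be named, and those with the 5 largest and 5 smallest called log2 fold changes in Metformin+FK506 against FK506 are given in full. Genes of the lists may also be named, and some of them are not reported here. The alternatives were DESeq2 1.42.0, library totals, limma 3.58.1 on log2(FPKM + 1) and log2(FPKM + 0.1), other filters, the replicate block, fits of 2 groups only, a call rule of at least 1 on the log2 scale, TMM-scaled counts (CPM) for levels, another reference than Lyz2, and leaving out each of the 12 samples in turn.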

Additional observations from a re-analysis of the deposited data

Results flagged for a closer look

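For 7 members the log2 fold change with metformin differed between cultures without and with FK506, by edgeR's test of the interaction with Benjamini-Hochberg adjustment. The change was lower on the log2 scale with FK506 by -2.26 for Gpnmb, -0.83 for Cd68, -0.76 for Cybb, -0.68 for Spi1 and -0.32 for Ctsd. It was higher with FK506 by 1.36 for Axl and 0.35 for Ccr2. Cd68 rose with metformin in both settings, and Axl fell with metformin alone and was higher, narrowly past the threshold, when metformin was added to FK506. The call for Ccr2 was lost under 13 of the other fits and those for the remaining 6 genes under none, but under a rule of at least 1 on the log2 scale the calls of Gpnmb and Axl alone were left. Among all tested genes 46.5% passed the same test.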

How the results depend on the processing

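The counts of members called against Control with FK506 or with both drugs, and the 37 higher against Metformin, kept within 1.5 times of their value under all 21 alternatives, and of 141 results for single members 110 kept their direction and side of the threshold in every fit, the rule of at least 1 on the log2 scale not counted. In Metformin+FK506 against FK506 the 7 higher became 3 with limma on log2(FPKM + 0.1) and 4 to 9 with a sample left out, and 4 is the count without FK506 replicate 2. The 7 lower became 11 with DESeq2 and 6 to 9 with a sample left out. At 1 or more on the log2 scale both were 0. In Metformin+FK506 against Metformin the 1 lower (Axl) became 0 with library totals, with limma at either offset and at 1 or more on the log2 scale. In Metformin against Control the 8 higher became 5 at 1 or more and 8 to 9 with a sample left out, and the 4 lower became 1 with limma at either offset, 2 in a fit of those groups only, and 2 to 4 with a sample left out (2 without Metformin replicate 2 or 3). For the interaction the 2 higher became 1 with library totals, limma on log2(FPKM + 0.1), no filter, or 1 or more on the log2 scale, and 1 to 2 with a sample left out, and the 5 lower became 1 at 1 or more. The 35 members whose ratio to Lyz2 was higher with both drugs became 23 with the sum of the other members as reference, and 12 with that sum without Lyz2, a reference chosen after seeing the data. The cause of these differences was not tested, except that a rule of at least 1 on the log2 scale is stricter by construction.

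The replicate numbers did not pair the samples, as none of 18 same-numbered pairs had deviations correlated above 0.1. With the replicate block the interaction had 1 member higher instead of 2, as Ccr2 came to an adjusted p of 0.0520, Msr1 in Metformin+FK506 against FK506 came to 0.0581, and the 4 lower in Metformin against Control became 3, 1 of the calls on 0 to 5 reads being lost. It changed no other call.

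Changes of sign occurred only in differences that did not pass the threshold, before or after. Many of these were near 0, while that of Trem2 was 0.28 ± 0.25 in the fit of all samples. In Metformin+FK506 against FK506, leaving out 1 sample gave values from -0.04 to 0.12 for Cebpa, -0.31 to 0.52 for Fcgr4, -0.06 to 0.43 for Trem2, -0.02 to 0.21 for Clec4a2, -0.05 to 0.18 for Tlr4 and -0.04 to 0.08 for Marco. Limma brought Fcgr4 to -0.02 (offset 0.1) and Cd36 to 0.05 (both offsets). In Metformin against Control, Ccr2 came to 0.03, 0.02 and 0.03 with library totals and limma at offsets 1 and 0.1, to 0.01 with a mean FPKM of at least 1, and to between -0.08 and 0.05 with a sample left out. Lgals3 came to 0.02 with library totals and limma, 0.00 with the stricter filter, and between -0.06 and 0.05 with a sample left out. With a sample left out, Fcer1g ran from -0.22 to 0.26 and Cybb from -0.01 to 0.11, Tlr2 ran from -0.00 to 0.25, and the interaction of Fcer1g ran from -0.08 to 0.40. Library totals moved the median of all genes in FK506 against Control from 0.02 to 0.25, and limma on log2(FPKM + 1) to 0.19, while the members called there differed by more than 1. Depth limits the genes at the floor: a member with 0 reads may be present at up to 3 reads per library.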

Other observations

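Among the partner genes not yet described, 6 of 8 complement proteins and receptors other than C1q were tested, of which 4 passed the filter only through the FK506 groups and so had to be higher there. The other genes, C3 and Cfp, were also higher in FK506 than in Control, as were 41.3% of all tested genes. C3, the central complement protein, had means of 1.21, 0.0925, 52.0 and 38.0 FPKM in Control, Metformin, FK506 and Metformin+FK506. It fell with metformin alone (log2 -3.69, adjusted p = 1.30e-10, edgeR) and when metformin was added to FK506 (-0.44, adjusted p = 2.48e-04). Cfb, factor B of the alternative pathway, and Cfp, properdin, also fell in the latter comparison (-0.46, adjusted p = 0.00147, and -0.55, adjusted p = 5.47e-05), while Cd93, a surface glycoprotein of the same list, rose (0.66, adjusted p = 7.65e-05), as C1qb and C1qc did. The receptors C3ar1 and C5ar1 were at 0 FPKM in Control and Metformin and at 1.76 ± 0.198 and 2.18 ± 0.0610 FPKM (SD, n = 3) in FK506 and at 2.04 ± 0.329 and 2.52 ± 0.454 in Metformin+FK506, with no call between these groups. B cells and neutrophils also express Cfp, and its source was not tested.

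Among transcription factors, Nr1h3, the cholesterol sensor LXR alpha, had means of 0.212 and 0.850 FPKM in Control and Metformin (log2 1.80, adjusted p = 1.22e-06) and 18.4 ± 0.852 and 16.5 ± 1.22 (SD, n = 3) in FK506 and Metformin+FK506. Its targets Abca1 and Abcg1 moved in opposite directions with metformin alone (-0.39, adjusted p = 0.00335, and 1.02, adjusted p = 1.60e-11). Irf8, which B cells, dendritic cells and monocytes use, fell when metformin was added to FK506 (-0.50, adjusted p = 8.78e-08) and Maf rose (0.55, adjusted p = 2.21e-04).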
